A study of Mus musculus with 168 samples.

Results

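The 3 vesicular glutamate transporters Slc17a6, Slc17a7 and Slc17a8, which encode VGLUT2, VGLUT1 and VGLUT3, were followed across 6 populations of mouse neurons. They were chosen by name, with earlier results of these data known, and are 3 of the 39410 rows of one expression table. Each row gives reads per kilobase of transcript, scaled to the mapped reads of the library (RPKM). This unit is scaled for length and depth but not for other differences between libraries.

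Neurons were cut by laser capture microdissection from briefly stained frozen sections, with about 150 cells in a tube, and their polyadenylated RNA was read by Smart-seq2 with Tn5 tagmentation. SMA mice of the delta7 line, a model of spinal muscular atrophy, had the genotype Smn-/-, SMN2+/+, SMN∆7+/+. Their littermate controls were Smn+/+ and carried the same SMN2+/+ and SMN∆7+/+ human transgenes, so every mouse in the study expressed human SMN. Mice were taken at postnatal days 2, 5 and 10, with 6 control and 9 SMA mice on day 2, 5 and 5 on day 5, and 4 and 5 on day 10. The populations were red nucleus neurons and 5 motor populations: ocular (the oculomotor and trochlear nuclei), facial, vagus, hypoglossal and lumbar spinal cord. Averaging repeat libraries of a mouse and population turned 168 libraries into 160 samples from 34 mice, which form 36 groups of 3 to 7 mice.

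Glutamate is the main fast excitatory transmitter of the brain and spinal cord, and it is loaded into synaptic vesicles by the VGLUT proteins. A neuron that makes one of them can release glutamate. VGLUT1 is typical of cortical, hippocampal and cerebellar granule neurons, VGLUT2 of thalamic, brainstem and spinal neurons, and VGLUT3 of scattered neurons that mostly use another transmitter, such as serotonin or acetylcholine. Red nucleus neurons are glutamatergic projection neurons that descend to the spinal cord, while motor neurons use acetylcholine and contact muscle or autonomic ganglia.

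The sequences bear on how well short reads can be told apart between the 3 genes. Slc17a6 (ENSMUSG00000030500.6) lies on the plus strand at chr7:51622006-51671119 in GRCm38, Slc17a7 (ENSMUSG00000070570.5) on the plus strand at chr7:45163949-45176142, and Slc17a8 (ENSMUSG00000019935.16) on the minus strand at chr10:89574020-89621253. The coding sequences, of 1746, 1680 and 1803 bases in GENCODE M21, were 71.9% identical between Slc17a6 and Slc17a7, 70.7% between Slc17a6 and Slc17a8, and 69.0% between Slc17a7 and Slc17a8. The most alike stretch of 60 coding bases spans exons 4 and 5 of 12 in each gene. It is shown here 5′ to 3′ with capitals for the 47 bases that are the same in all 3 genes:
Slc17a6: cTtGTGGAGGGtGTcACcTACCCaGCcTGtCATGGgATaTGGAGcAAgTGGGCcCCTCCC
Slc17a7: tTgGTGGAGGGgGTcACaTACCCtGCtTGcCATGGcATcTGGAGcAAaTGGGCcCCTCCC
Slc17a8: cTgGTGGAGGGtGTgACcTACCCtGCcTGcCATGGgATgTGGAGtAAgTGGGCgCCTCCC
Even here the differing bases are scattered along the whole stretch. The longest exact run shared by any pair of transcripts was 25 bases, between Slc17a6 and Slc17a8, and no pair shared a run of 50 bases.

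Depth was recovered from the steps of low RPKM values and ran from 0.342 to 16.3 M reads (M for mega) per library, with a median of 5.89 M. Mouse Smn1 checked the genotype labels: it was 4.32 to 63.3 RPKM in all 72 control samples, and in SMA samples it was 0 in 70 of 88 and at most 4.24. Markers matched the dissected populations. Chat, the acetylcholine-synthesizing enzyme, was above 0 in all 137 motor samples and at most 1.72 RPKM in red nucleus samples, where it was 0 in 16 of 23. Pou4f1, a transcription factor of the red nucleus, was 77.7 to 528 RPKM there, against a motor median of 0.07. Some samples stood apart: 2 had under 2 M reads, 4 motor samples had 10 RPKM or more of Pou4f1, and 9 samples had that much of the serotonin neuron genes Tph2 or Slc6a4. These make 14 samples in all, since 1 is in more than one of the sets. Results that change without them are given with both values.

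Slc17a6 was by far the most abundant of the 3 in red nucleus neurons and the only one read in every library. In control red nucleus samples it was 143, 159, 180 and 188 RPKM on day 2. On day 5 it was 121, 185 and 247 RPKM, and on day 10 it was 132, 196, 197 and 203 RPKM. In SMA red nucleus samples it was 169, 185, 189 and 229 RPKM on day 2, 191, 214, 225 and 250 on day 5, and 172, 181, 181 and 195 on day 10. The lowest of these 23 samples, at 121 RPKM, was above the highest of the 137 motor samples, an SMA ocular sample of day 10 at 119. Among 22270 genes tested, 0.108% lay above every motor sample in this way in controls and 0.0718% in SMA mice.

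Control motor populations had a low but measurable level of Slc17a6. The mean was 19.0 ± 13.6 RPKM in lumbar (SD, n = 13), 17.7 ± 13.2 in vagus (n = 11) and 11.6 ± 6.91 in hypoglossal neurons (n = 12). It was 8.23 ± 4.63 in ocular neurons (n = 12) and 6.99 ± 7.40 in facial neurons (n = 13), where the median was 4.45. The red nucleus mean of 177.4 ± 36.2 RPKM (n = 11) was thus 25.4 times the facial mean, 21.5 times the ocular, 15.3 times the hypoglossal, 10.0 times the vagus and 9.35 times the lumbar mean. In bulk tubes like these, a smaller number of cells with a transcript and less of it per cell cannot be told apart.

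**Figure D1:**
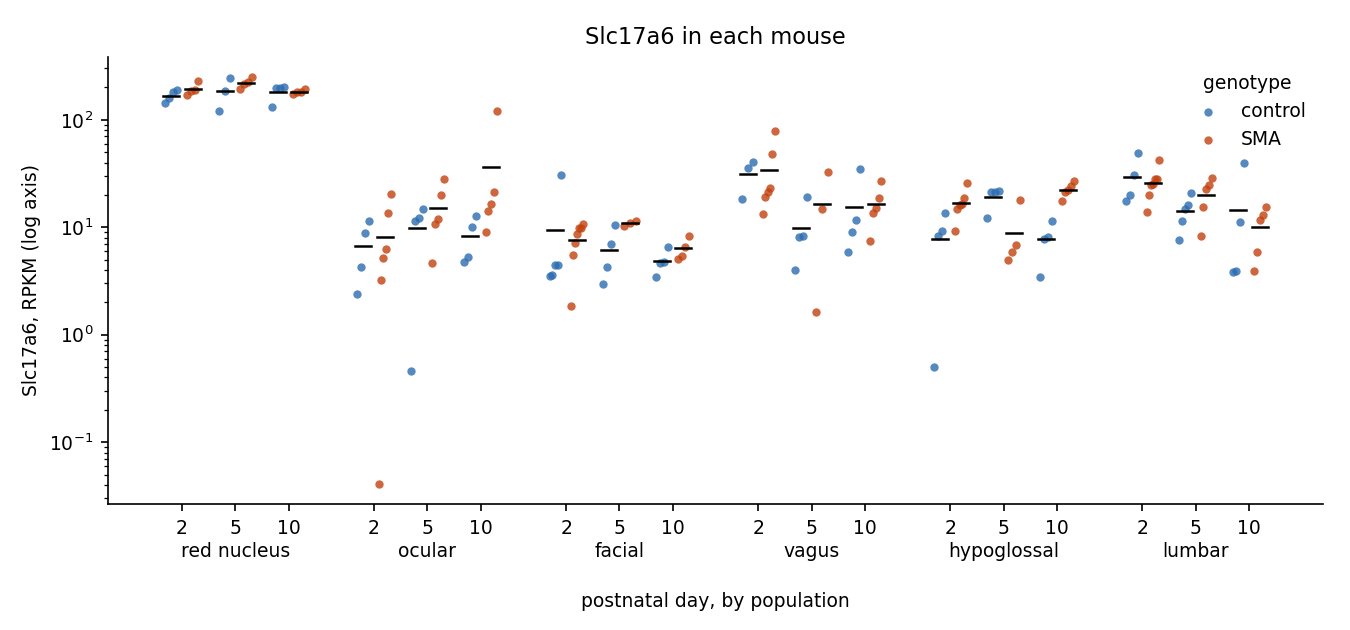
Slc17a6 in each mouse, as RPKM on a log axis, by population and postnatal day, with controls in blue, SMA mice in orange and a black bar at each group mean. All 23 red nucleus samples lie between 121 and 250 RPKM, above all 137 motor samples.

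The same order held on the log2(RPKM + 1) scale on which the test was run, where differences of low values are understated. Red nucleus minus facial was 4.75 (SE 0.34), minus ocular 4.50 (SE 0.35), minus hypoglossal 4.09 (SE 0.35), minus vagus 3.47 (SE 0.36) and minus lumbar 3.44 (SE 0.34) in controls. All 5 passed an adjusted p of 0.05 in limma's moderated test (8.33e-25 to 3.5e-15, Benjamini-Hochberg over all genes), where red nucleus was higher in 7.98% of all gene-by-contrast tests. In SMA mice the 5 differences were 3.51 to 4.49 and all passed, beside a background of 9.05%. At single ages in controls, 15 of 15 contrasts passed (background 9.48%), from 2.45 against vagus on day 2 to 4.97 against facial on day 10. The contrast with vagus on day 2 was lost without control mouse 26 (adjusted p = 0.0857). The high level in red nucleus was known when the genes were chosen, so these p-values are no independent support for it. Within mice, the red nucleus value was the higher one in 22 of 22 mice that had an ocular sample, 21 of 21 with facial, 19 of 19 with vagus, 20 of 20 with hypoglossal and 21 of 21 with lumbar samples. The median ratio within a mouse ran from 11.8 for hypoglossal and for lumbar to 27.8 for facial, and the lowest single ratio was 2.395, against a vagus sample.

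Motor populations also differed from one another in Slc17a6. In controls facial was below lumbar by a log2 difference of -1.31 (adjusted p = 0.00293) and below vagus by -1.28 (adjusted p = 0.00257), both in limma. Ocular was below lumbar by -1.06 (adjusted p = 0.0179) and below vagus by -1.03 (adjusted p = 0.0197). With the 5 red nucleus pairs, this made 9 of the 15 pairs of populations called, where 16.8% of all gene-by-pair tests were called. Neighbours in the order did not differ beyond their error: lumbar and vagus (vagus minus lumbar -0.03, adjusted p = 0.998), vagus and hypoglossal (0.62, adjusted p = 0.239), hypoglossal and ocular (-0.41 for ocular minus hypoglossal, adjusted p = 0.548), and ocular and facial (0.25, adjusted p = 0.762). The ocular pairs depended on single mice: without control mouse 29, whose ocular value was 0.459 RPKM, the adjusted p was 0.154 against lumbar and 0.122 against vagus. It was also above 0.05 without mouse 253 for both pairs (0.0744 and 0.0527), without 252 for lumbar (0.0598) and without 34 for vagus (0.0544). In SMA mice 7 of 15 pairs were called (background 17.8%), with facial again below vagus (-0.98, adjusted p = 0.0205) and lumbar (-0.96, adjusted p = 0.0312). Both of these were lost with a pseudocount of 0.1 (adjusted p = 0.0602 and 0.0763), the contrast with vagus also without mouse 61 or 77 (0.172 and 0.0854), and that with lumbar without any 1 of mice 16, 31, 77, 196, 199 and 249 (0.0568 to 0.0873).

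Slc17a6 in lumbar motor neurons of SMA mice was lower at day 10 than at day 2. SMA samples of day 2 ran from 13.9 to 42.1 RPKM over 7 mice, with a mean of 26.0. On day 5 they were 8.24, 15.4, 22.5, 24.5 and 28.9 RPKM, and on day 10 they were 3.89, 5.85, 11.6, 13.1 and 15.4 RPKM. Of the day 10 mice, 1 lay within the day 2 range and the others below it. The log2 difference was -1.38 (SE 0.42, adjusted p = 0.0195 in limma), in a contrast where 18.4% of genes were called, and it was lost without SMA mouse 250 (adjusted p = 0.0805) or 258 (adjusted p = 0.0599). Control lumbar samples were 17.4, 20.0, 30.8 and 49.4 RPKM on day 2 and 3.84, 3.92, 11.2 and 39.4 on day 10, so that 1 mouse of day 10 lay within the day 2 range. The control difference of -1.43 (SE 0.50) missed the threshold (adjusted p = 0.0620, with 12% of genes called), and was -2.08 (adjusted p = 0.00200) without that mouse, 253. Over the same days the summed level of 4 oligodendrocyte markers (Mbp, Mog, Mag, Mobp) in lumbar samples went from a median of 16.0 to 531 RPKM in SMA mice and from 25.5 to 653 in controls, with no listed gene at 0 in every mouse. The inhibitory neuron genes Slc32a1, Slc6a5 and Gad1 were at 28.0, 16.1 and 10.2 RPKM in control mouse 253 of day 10, against at most 6.23, 3.39 and 1.40 in the other 3 mice of its group. Control mouse 28, the highest in Slc17a6 on day 2, was also the highest of its group in these genes, with 16.3, 15.9 and 8.27 RPKM. In SMA mice the summed level of 4 such markers (with Gad2) went from a median of 10.2 RPKM on day 2 to 26.7 on day 10. The part of other cells in the values of Slc17a6 was not tested.

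Red nucleus Slc17a6 showed no age change past the threshold. The day 10 minus day 2 log2 difference was 0.10 in controls (95% interval -0.29 to 0.50, adjusted p = 0.793) and -0.07 in SMA mice (-0.47 to 0.32, adjusted p = 0.895). In vagus neurons it was -1.21 in controls and -0.85 in SMA mice, with wide intervals and adjusted p of 0.483 and 0.452. Of 12 age contrasts of Slc17a6, 1 was called, beside 7.22% of all gene-by-contrast age tests.

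Single ocular samples of SMA mice lay far from the rest in Slc17a6. Control values were 2.399, 4.25, 8.92 and 11.4 RPKM on day 2, 0.459, 11.5, 12.2 and 14.9 on day 5, and 4.74, 5.25, 10.1 and 12.7 on day 10. SMA values on day 10 were 9.07, 14.2, 16.6, 21.5 and 119 RPKM. The sample at 119 RPKM, of mouse 250, also had the highest Pou4f1 of any motor sample, 57.4 RPKM, and the sample at 16.6 RPKM had 16.4 RPKM of Pou4f1. The SMA day 10 minus day 2 difference was 1.91 (adjusted p = 0.0967) with all samples, 2.26 without mouse 207 (adjusted p = 0.0499), and 0.46 without the 14 samples that stood apart. At the other end, an SMA day 2 ocular sample of mouse 206 had 0.041 RPKM, about 1 read. That sample had 428 RPKM of Tph2 and 725 of Slc6a4.

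**Figure D2:**
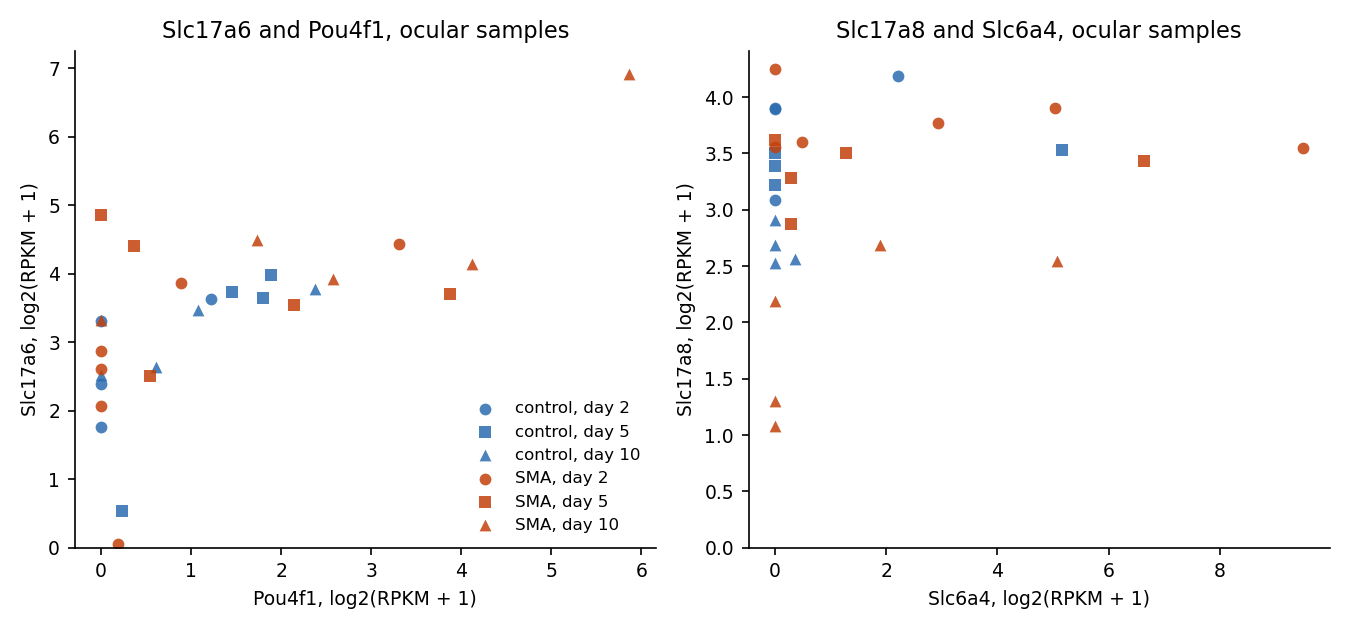
Ocular samples, 1 point per mouse, on log2(RPKM + 1) axes, with Slc17a6 against the red nucleus gene Pou4f1 on the left and Slc17a8 against the serotonin transporter gene Slc6a4 on the right. The sample highest in Slc17a6 is also highest in Pou4f1. Samples at 0 in Slc6a4 include the lowest in Slc17a8, at 1.12 RPKM (SMA, day 10), and the highest, at 18.1 RPKM (SMA, day 2). The part of other cells in these values was not tested.

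Slc17a8 was highest in ocular motor neurons and low or at 0 in the other motor populations. Control ocular samples had 7.50, 13.9, 14.0 and 17.3 RPKM on day 2, 8.34, 9.47, 10.4 and 10.54 on day 5, and 4.75, 4.91, 5.45 and 6.49 on day 10. In SMA ocular samples it ran from 10.7 to 18.1 RPKM over 6 mice on day 2, with a mean of 12.9, and was 6.34, 8.73, 9.84, 10.3 and 11.3 on day 5 and 1.12, 1.47, 3.57, 4.82 and 5.43 on day 10. The lowest control ocular sample was above all other control samples, the highest of which was a red nucleus sample at 4.65 RPKM. In controls 12 genes, 0.0539% of those tested, lay above every sample of the other populations in this way. In SMA mice the ocular samples of day 10 reached down into the red nucleus range.

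Ocular was above each of the 5 other populations in both genotypes. In controls the log2 difference was 3.20 against facial, 3.18 against lumbar, 3.06 against vagus, 2.97 against hypoglossal and 2.399 against red nucleus neurons (SE 0.16 to 0.17), all past the threshold, with ocular higher in 7.08% of all gene-by-contrast tests. In SMA mice the differences were 2.83, 2.88, 2.81, 2.79 and 1.96 in the same order, also all called, beside 7.28%. Within mice the ocular value was the higher in 22 of 22 red nucleus, 24 of 24 facial, 22 of 22 vagus, 24 of 24 hypoglossal and 25 of 25 lumbar pairings. Slc17a8 passed the filter on low values mainly through its ocular and red nucleus samples. The p-values of its ocular and red nucleus contrasts are therefore no independent support for a higher level there. The facial, vagus, hypoglossal and lumbar means were 0.065 to 0.288 RPKM in controls, close to the 0.114 RPKM that 3 reads make in a library of median depth.

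**Figure D3:**
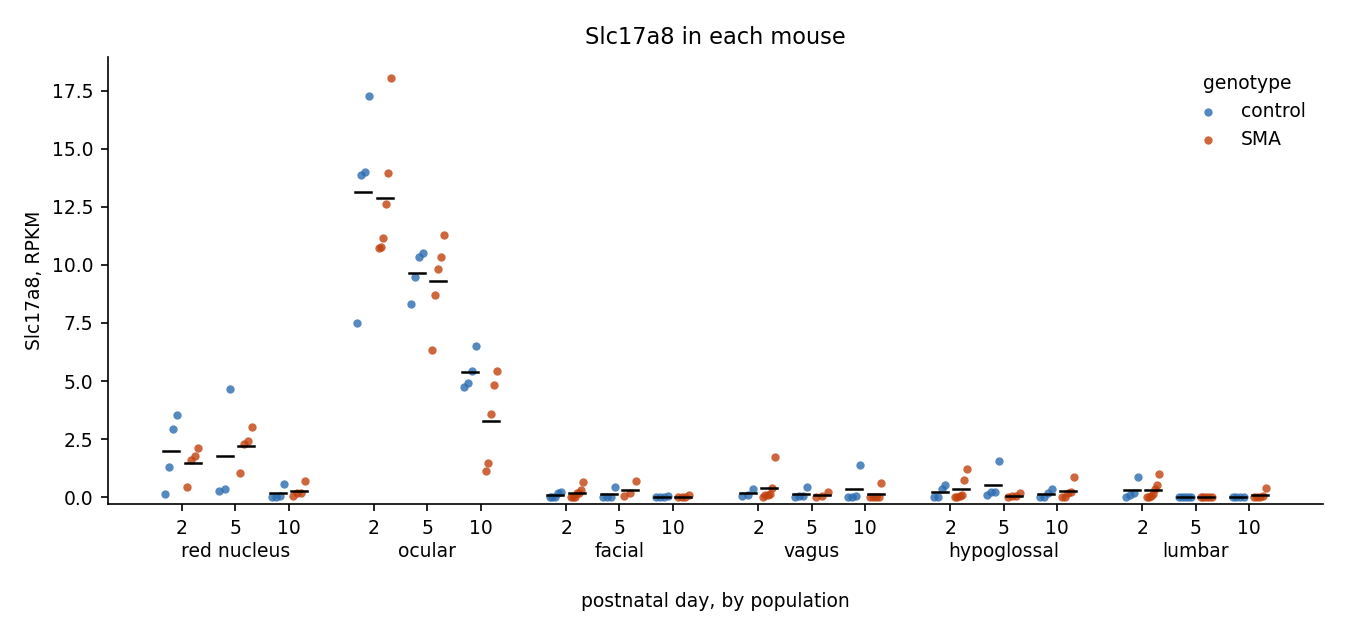
Slc17a8 in each mouse, as RPKM, by population and postnatal day, with controls in blue, SMA mice in orange and a black bar at each group mean. Ocular group means go from 13.2 RPKM on day 2 to 5.40 on day 10 in controls and from 12.9 to 3.28 in SMA mice, and red nucleus samples stay below 5 RPKM.

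Slc17a8 fell with age in ocular neurons of both genotypes. The control means were 13.2 ± 4.09 RPKM on day 2, 9.67 ± 1.01 on day 5 and 5.40 ± 0.787 on day 10 (SD, n = 4 each). The control log2 difference between day 10 and day 2 was -1.10 (SE 0.31, adjusted p = 0.0265 in limma, with 8.02% of genes called). It was lost when only the groups compared entered the fit (adjusted p = 0.0811), without samples high in Tph2 or Slc6a4 (adjusted p = 0.0604), and without any 1 of mice 14, 26, 244, 247, 253 and 254 (adjusted p = 0.0559 to 0.0899). The SMA means were 12.9 ± 2.84, 9.31 ± 1.90 and 3.28 ± 1.94 RPKM (n = 6, 5 and 5). The SMA difference was -1.81 (SE 0.27, adjusted p = 5.99e-05, with 6.66% of genes called), and it passed under all alternatives and with any 1 mouse left out (adjusted p up to 0.0186).

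VGLUT3 is known from serotonin neurons, which lie close to the ocular nuclei, so serotonin neuron genes are given beside these values. The summed level of Tph2, Slc6a4 and Fev was 0 to 3.61 RPKM in control ocular samples of day 2, where Slc17a8 was highest and where 2 of the 3 genes were at 0 in every mouse. It was 0 to 49.1 RPKM in controls of day 5 and 0 to 0.445 on day 10. In SMA ocular samples it was 0 to 1237 RPKM on day 2, 0.155 to 156 on day 5 and 0 to 75.6 on day 10. Within groups the samples highest in these genes were found at either end of Slc17a8 and in between. SMA mouse 46 on day 5, at 156 RPKM, had 9.84 RPKM of Slc17a8, the median of its group. Control mouse 254 on day 10, at 0.445 RPKM, had 4.91 RPKM of Slc17a8, inside the range of its group. The sample at 1237 RPKM, of SMA mouse 206, had 10.7 RPKM of Slc17a8, the lowest of its group. Control mouse 75, at 49.1 RPKM, had the highest Slc17a8 of its group, 10.54 RPKM, and so did control mouse 244 on day 2, with 3.61 RPKM of Slc6a4 and 17.3 of Slc17a8. On day 10 SMA mice 196 and 199, the highest in these genes, were also the highest in Slc17a8, at 5.43 and 4.82 RPKM. The part of serotonin neurons in these levels was not tested, and without the samples of 10 RPKM or more of Tph2 or Slc6a4 ocular stayed above all 5 other populations in each genotype.

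Red nucleus neurons had a low level of Slc17a8, with wide spread. Control values were 0.14, 1.29, 2.94 and 3.55 RPKM on day 2, 0.26, 0.35 and 4.65 on day 5, and 0, 0, 0.06 and 0.55 on day 10. The 0 of mouse 252 says little, because its library of 0.342 M reads puts 3 reads at 1.97 RPKM. SMA means were 1.47, 2.20 and 0.258 RPKM on days 2, 5 and 10. By limma, red nucleus was above facial (0.80), lumbar (0.78), vagus (0.66) and hypoglossal neurons (0.57) in controls, with adjusted p of 8e-05 to 0.00831. In SMA mice it was above them by 0.82 to 0.92. Within control mice the red nucleus value was the higher in 8 of 10 facial, 7 of 9 lumbar, 4 of 8 vagus and 4 of 9 hypoglossal pairings. Within SMA mice it was the higher in 10 of 11, 11 of 12, 10 of 11 and 9 of 11, in the same order. The control contrasts with vagus and hypoglossal rested on mouse 30, whose red nucleus value was the 4.65 RPKM: without it the adjusted p was 0.0976 and 0.181. The age differences of -1.21 in controls and -0.94 in SMA mice missed the threshold (adjusted p = 0.104 and 0.290), and the control one passed without mouse 26 (adjusted p = 0.0287).

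Slc17a7, the cortical and cerebellar form, was absent or nearly so from most samples. It was above 0 in 59 of 160 samples and reached 1 RPKM in 11, of which 5 were hypoglossal, 5 facial and 1 ocular. It passed the filter through these samples. In red nucleus samples it was 0 in 18 of 23 and at most 0.579 RPKM, and in lumbar samples it was 0 in 25 of 30. In a library of median depth 3 reads correspond to 0.175 RPKM, which is the level that a value of 0 still allows, and non-zero values below it rest on about 1 to 4 reads. The exceptions were hypoglossal and facial neurons, mostly on day 10. SMA hypoglossal samples of day 10 had 0, 0.31, 9.59, 9.68 and 26.4 RPKM, the last about 373 reads, while control samples of that day had 0, 0, 0.11 and 2.98. Control facial samples of day 10 had 0, 1.72, 2.51 and 6.85 RPKM and SMA facial samples 0, 0, 0.12 and 2.56. In both populations at least 1 mouse of each day 10 group was at 0, so that the groups overlapped.

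**Figure D4:**
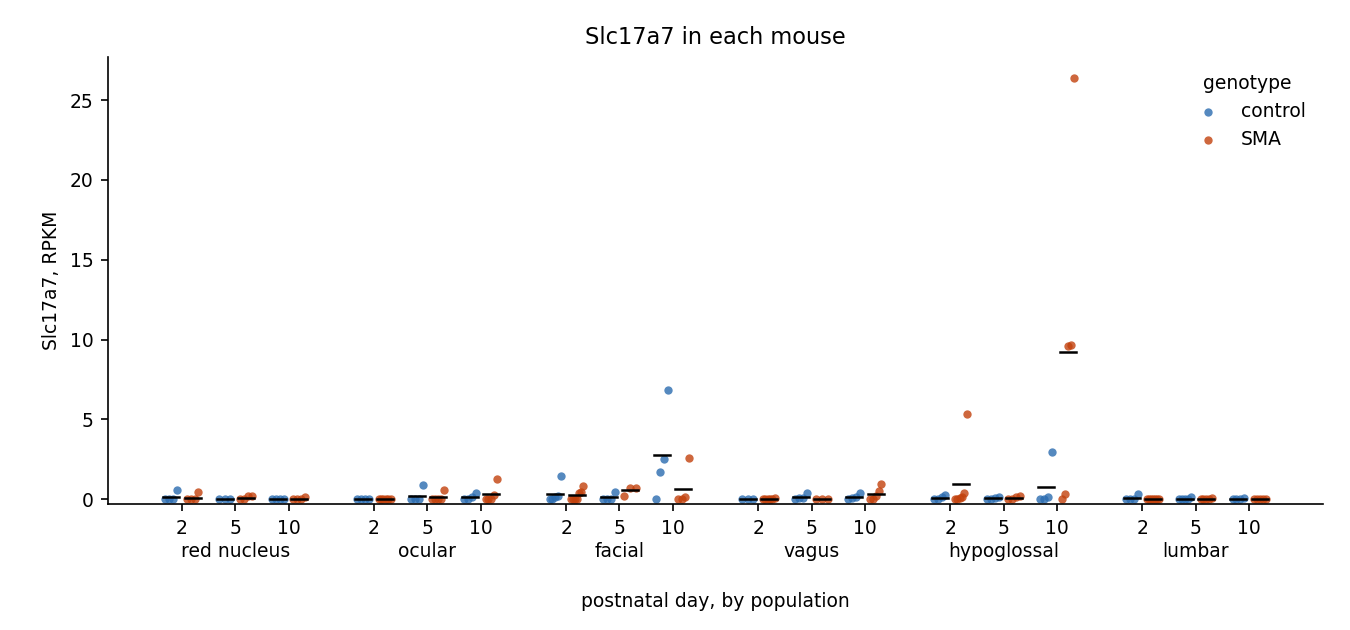
Slc17a7 in each mouse, as RPKM, by population and postnatal day, with controls in blue, SMA mice in orange and a black bar at each group mean. Samples above 2 RPKM are found in facial and hypoglossal neurons alone, and the highest, at 26.4 RPKM, is an SMA hypoglossal sample of day 10.

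By limma, SMA hypoglossal neurons were above red nucleus, ocular, vagus and lumbar neurons in Slc17a7, with log2 differences of 0.93, 0.89, 0.91 and 1.02 (adjusted p from 2.67e-05 to 0.00039). Only 4 of the 15 SMA hypoglossal samples reached 1 RPKM. Because the gene passed the filter mainly through hypoglossal and facial samples, these p-values are no independent support for a higher level there. The 4 contrasts were all that was called among 15 pairs in SMA mice, where 17.8% of all gene-by-pair tests were called. Only hypoglossal against lumbar stayed when each pair was fitted on its own samples. In controls 1 of 15 pairs was called, red nucleus below facial by -0.63 (SE 0.23, adjusted p = 0.0422), which rested on day 10 (-1.56, adjusted p = 0.00309). That control contrast was lost under 5 of 11 alternatives and without any 1 of 10 mice (adjusted p = 0.0519 to 0.193). The age differences missed the threshold in all 4 contrasts tested, among them 1.84 in SMA hypoglossal (adjusted p = 0.09996) and 1.21 in control facial neurons (adjusted p = 0.115). The first passed without any 1 of SMA mice 196, 199 and 211 (adjusted p = 0.0172 to 0.0315), and the second without mouse 252 (adjusted p = 0.0138).

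The mix of the 3 transporters differed among populations. Of their summed RPKM, Slc17a6 made up, as a mean over control mice, 99.5% for lumbar, 99.1% for red nucleus, 97.95% for vagus, 95.4% for hypoglossal and 86.7% for facial neurons. In control ocular neurons it made up 44.7% ± 20.7 and Slc17a8 54.7% ± 21.2 (SD, n = 12). In SMA ocular neurons the share of Slc17a8 was 43.5% ± 27.4 (n = 16). Slc17a7 made up 12.4% in control facial neurons and 9.61% in SMA hypoglossal neurons.

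None of the 3 genes differed between SMA mice and controls past the threshold. Of 54 combinations of gene, population and age, 30 passed the filter. By limma 0 of these 30 were called, where 0.129% of all gene-by-contrast genotype tests were called. At that share a count of 0 among 30 says little. An unadjusted p under 0.05 was reached by 6, and the lowest adjusted p was 0.275. In red nucleus neurons the SMA minus control log2 difference of Slc17a6 was 0.20 on day 2 (95% interval -0.19 to 0.60), 0.31 on day 5 (-0.12 to 0.73) and 0.02 on day 10 (-0.37 to 0.42). For Slc17a8 in ocular neurons it was 0.00 on day 2 (-0.58 to 0.59) and -0.71 on day 10 (-1.32 to -0.10, adjusted p = 0.736).

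Hypoglossal neurons held 3 of the 6 for Slc17a6 and another for Slc17a7. On day 10 SMA hypoglossal samples had 17.4, 21.4, 22.3, 24.2 and 26.7 RPKM of Slc17a6 and controls 3.46, 7.84, 8.12 and 11.5. The groups did not overlap, as in 2.52% of the genes tested there, and the log2 difference was 1.504 (0.56 to 2.44, adjusted p = 0.391). On day 2 it was 1.35 (0.45 to 2.26, adjusted p = 0.275). On day 5 it had the other sign, -1.16 (-2.15 to -0.17, adjusted p = 0.777), with SMA samples at 4.91, 5.83, 6.89 and 18.0 RPKM and controls at 12.3, 21.2, 21.5 and 21.5. Whether this difference varied with age was tested by limma's F test, with an adjusted p of 0.371 (0.000569 before adjustment). In hypoglossal neurons that test called 0 of 16486 genes, and over all genes and populations the share called was 0.0344%. On day 10 the summed level of the 4 inhibitory neuron markers Gad1, Gad2, Slc32a1 and Slc6a5 was 29.4 to 107 RPKM (median 73.8) in SMA hypoglossal samples and 2.61 to 58.1 (median 38.4) in controls, with no gene at 0 in every mouse. That of 3 markers of glutamatergic interneurons (Lmx1b, Tlx3, Lbx1) was at most 1.201 RPKM in SMA samples and 0.529 in controls, with 1 of them at 0 in every mouse of each group. The part of other cells in the difference was not tested.

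**Figure D5:**
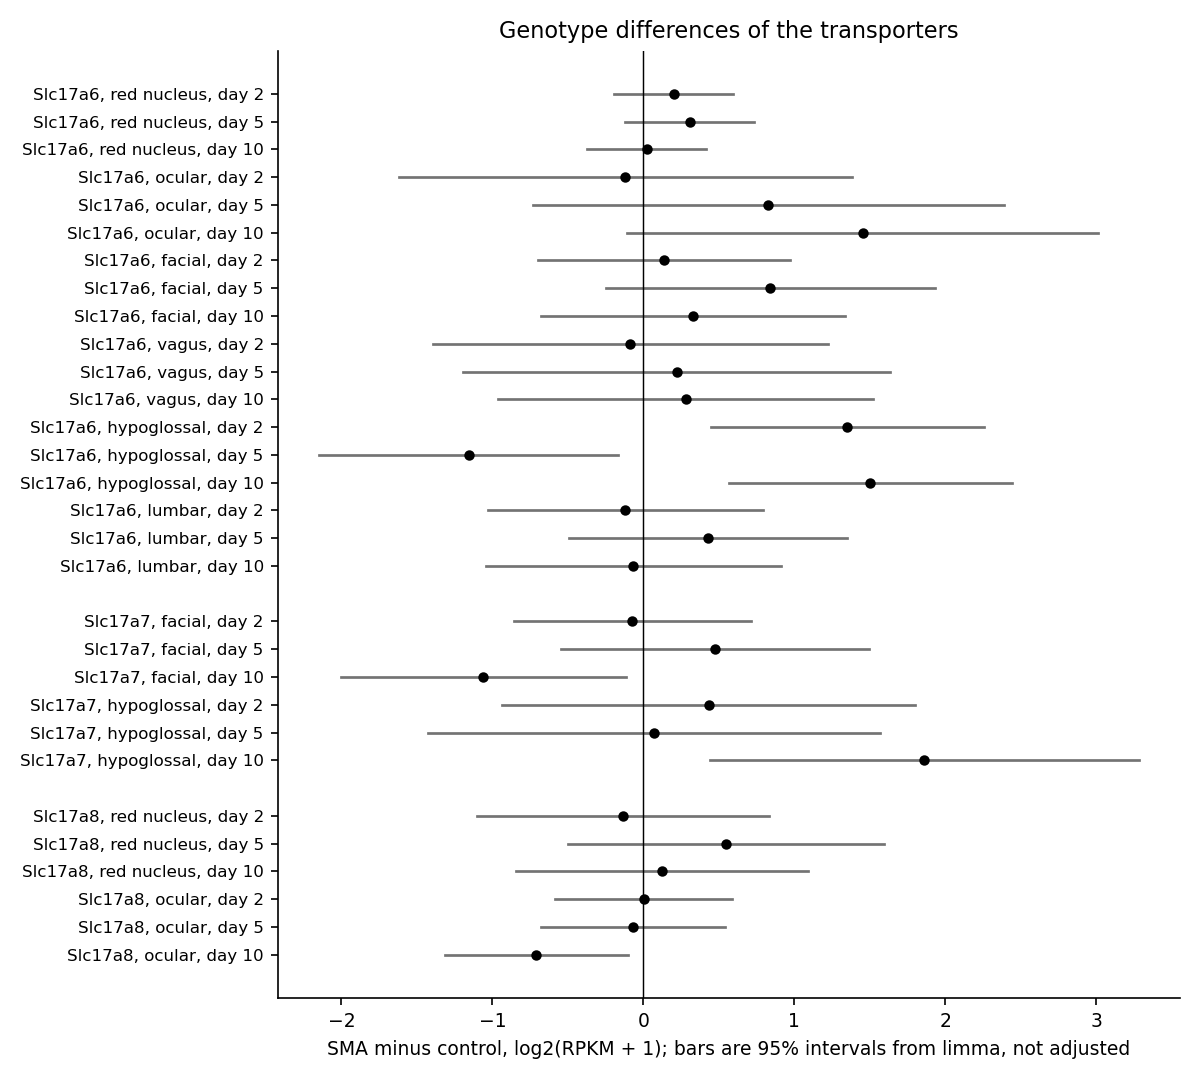
SMA minus control difference of each transporter on the log2(RPKM + 1) scale for the 30 combinations of gene, population and day that passed the filter, with points at the estimate and bars for unadjusted 95% intervals from limma. The intervals that exclude 0 are the 6 with an unadjusted p under 0.05, and none of them passed adjustment.

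The genotype difference did not vary between red nucleus and motor populations past the threshold for any of the 3 genes: 0 of 15 such contrasts were called by limma, beside 0.0404% of all tests. The one with the lowest p was Slc17a7, red nucleus against hypoglossal (-0.74, unadjusted p = 0.0209, adjusted p = 0.808). The other transporters of the SLC17 family, those that carry other transmitters into vesicles and the genes that supply glutamate were counted from fixed lists. Of genotype tests, 0 of 18, 0 of 72 and 0 of 216 were called in them, and 0 of 90 for the plasma membrane glutamate transporters. Over all genes 0.129% of genotype tests were called, so that counts of 0 say little about lists of this size.

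Some genes that supply glutamate also differed between red nucleus and motor neurons. The list of 12 holds genes for glutamine synthetase, glutamate dehydrogenase, aspartate aminotransferases, glutamine transporters and mitochondrial carriers. In controls 6 of 12 were higher and 1 lower in red nucleus than in facial neurons, 5 and 1 than in hypoglossal, 4 and 2 than in lumbar, 2 and 3 than in ocular, and 8 and 1 than in vagus neurons. Over all genes 18%, 19.2%, 20.5%, 16.1% and 21.9% were called in these 5 contrasts, in either direction. The list's median log2 difference was 0.34, 0.31, 0.12, 0.10 and 0.73 in that order, against -0.05, -0.04, -0.04, -0.01 and -0.04 over all genes. The glutamine transporter gene Slc38a3 was at 13.6 ± 6.35 RPKM in control red nucleus (n = 11) and at 5.39 ± 2.83 in lumbar neurons, the highest motor mean (n = 13). Slc38a3 and Slc38a1, another glutamine transporter gene, were higher in red nucleus than in all 5 motor populations in both genotypes. Slc38a1 was at 36.7 ± 10.1 RPKM in control red nucleus neurons, with log2 differences of 0.46 against ocular to 1.29 against facial. Glul, the glutamine synthetase of astrocytes, was lower than in facial (-0.49), hypoglossal (-0.49), lumbar (-0.86) and ocular neurons (-1.32).

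Of 5 plasma membrane glutamate transporters, Slc1a1, the neuronal form, was higher in control red nucleus than in facial (0.50) and vagus neurons (1.27). The astroglial forms Slc1a2 and Slc1a3 were lower in some contrasts, Slc1a2 than in lumbar and ocular and Slc1a3 than in ocular and vagus neurons. Among 4 tested transporters that load other transmitters into vesicles, Slc32a1, which carries GABA and glycine, was lower than in hypoglossal (-1.79), lumbar (-1.53) and vagus neurons (-2.15). Slc18a2, which carries monoamines, was higher than in lumbar (0.81) and lower than in vagus neurons (-2.54). Of the other SLC17 genes 2 of 6 could be tested, and Slc17a5, the lysosomal sialic acid transporter, was lower than in hypoglossal (-0.996) and vagus neurons (-1.01).

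The genes most like each transporter were ranked by Pearson's r of the 36 group means of log2(RPKM + 1), among 9805 or 9806 genes that reached a group mean of 10 RPKM. Groups share mice and library preparation, so r is a description. For Slc17a6 they were Lhx1 (0.931), Uncx (0.924), Cxcl13 (0.909), Pou4f1 (0.898) and RP24-312G4.2 (0.896). Lhx1, Uncx and Pou4f1 encode homeodomain transcription factors, and Cxcl13 encodes a chemokine whose mean in control red nucleus neurons was 464.5 RPKM. For Slc17a8 they were Cnpy1 (0.938), En1 (0.923), Irx6 (0.902), Gngt1 (0.883) and Krt25 (0.874). En1, a transcription factor of the midbrain and rostral hindbrain, had a mean of 30.5 RPKM in control ocular neurons. For Slc17a7, which is at or near 0 in most groups, no gene was above the 0.785 of Snord45c. The mean of Snord45c was 0 RPKM in controls of every population. Among the 3 transporters themselves r was -0.168 for Slc17a6 and Slc17a7, -0.0293 for Slc17a6 and Slc17a8, and -0.175 for Slc17a7 and Slc17a8.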

How the data were processed

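The deposited values are RPKM per gene and library, made by the authors from Smart-seq2 reads. The submitters' processing notes name STAR 2.4.1c and the builds mm10 and hg19, without saying what the human build was used for. Counting and annotation are not given in the sources used here. Per the labels, reads of an earlier deposit were added to the control lumbar day 5 libraries. The 3 transporters and all gene lists were chosen with earlier results of these data known, including the high Slc17a6 level in red nucleus.

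Libraries of one mouse and population were averaged. Genes that reached 1 RPKM in 3 or more mouse samples, the size of the smallest group of the series, were tested on log2(RPKM + 1) with limma 3.58.1 (lmFit, eBayes with trend, two-sided) in R 4.3.3. Populations were compared in 1 fit of 160 samples and 22270 genes, and genotype and age in a fit for each population (15890 to 17270 genes). Benjamini-Hochberg adjustment ran over all genes of a contrast, with 0.05 as the threshold. The limma fits were run on simulated data for genotype contrasts and for population contrasts in controls. The other steps were not tested in this way. Named genes are the transporters, Smn1, listed genes, and the 5 genes closest to each transporter by group means. Some listed genes are not reported here.

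RPKM steps of 17340 single-transcript genes gave the depth: 68.9% to 82.1% of low values were whole reads within 1%. A value of 0 allows up to 3 reads. Such limits cover counting error only, since reads carry no molecular identifiers.

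Mice pair samples across populations, because the labels give the same mouse. With mouse as a block the consensus correlation was 0.0366 and no call changed. There were 12 alternatives, 4 of them chosen after seeing the data, and each of the 34 mice was left out in turn. No 2 libraries were copies: the highest correlation among 14028 pairs was 0.973. Python 3.11.15, pandas 2.3.3, numpy 2.4.6, scipy 1.17.1 and matplotlib 3.10.9 were used.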

Additional observations from a re-analysis of the deposited data

Results flagged for a closer look

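In 5 of 43 groups of a transporter with 4 or more mice and a mean of at least 1 RPKM, 1 mouse stood far from the rest on the log2(RPKM + 1) scale by Dixon's test, which flags about 1 in 20 groups by chance. All 5 were Slc17a6. In red nucleus controls of day 10 mouse 252 had 132.1 RPKM while the others had 195.8 to 202.7, in a library of 0.342 M reads, the shallowest of the study. In ocular controls of day 5 mouse 29 had 0.459 RPKM, about 16 reads, while the others had 11.5 to 14.9. In hypoglossal controls of day 5 mouse 71 had 12.3 RPKM against 21.2 to 21.5. In facial controls of day 2 mouse 14 had 30.7 RPKM against 3.52 to 4.45, and in facial SMA samples of day 2 mouse 16 had 1.85 RPKM against 5.50 to 10.6.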

How the results depend on the processing

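Neither the red nucleus excess of Slc17a6 nor the ocular excess of Slc17a8 (5 of 5 contrasts called in each genotype) lost a call under any alternative or with any 1 of 34 mice left out, and no direction reversed. With mouse as a replicate block all 92 results kept their call, among them Slc17a6 in red nucleus against facial controls at 4.74. Fitting only the groups compared took 8 counts to 0 or changed them by a larger factor, and smaller shifts are left out here. Slc17a7 in red nucleus against motor populations went from 1 to 0 in controls, in SMA mice and at single ages. Its pairs of populations went from 1 to 0 in controls and from 4 to 1 in SMA mice. Slc17a8 in red nucleus controls went from 5 to 3 over ages and from 10 to 3 at single ages, and its age contrasts from 2 to 1. Over all alternatives and left-out mice, Slc17a6 pairs called in SMA mice ranged from 5 to 8 and Slc17a8 pairs in controls from 7 to 9. The age count of Slc17a8 was also 1 without samples high in Tph2 or Slc6a4 and without all 14 samples that stood apart. The Slc17a7 red nucleus count in controls was also 0 with no filter, with quantile normalization, without samples under 2 M reads and without the 14. Its control pairs were 2 with a pseudocount of 0.1 or without trochlear libraries, and 0 with no filter, without samples under 2 M reads and without the 14. The cause of these changes was not tested.

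With each mouse left out in turn, counts of calls ranged as follows. For Slc17a6, pairs of populations were 7 to 9 in controls and 5 to 7 in SMA mice, age contrasts 0 to 2, and red nucleus contrasts at single ages 14 to 15. For Slc17a7, pairs were 0 to 5 in controls and 4 to 5 in SMA mice, age contrasts 0 to 1, red nucleus contrasts 0 to 1 in controls, 1 to 1 in SMA mice and 0 to 1 at single ages. For Slc17a8, pairs were 7 to 9 in controls and 9 to 9 in SMA mice, age contrasts 1 to 2, and red nucleus contrasts 3 to 5 in controls, 5 to 5 in SMA mice and 7 to 11 at single ages. Genotype and interaction counts were 0 throughout for all 3 genes.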

Other observations

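In 4 mice the oculomotor and trochlear nuclei were read in separate libraries. Slc17a6 was 22.3 RPKM in the oculomotor and 6.08 in the trochlear library of SMA mouse 196 on day 10. It was 18.0 and 6.47 in control mouse 30 and 17.6 and 12.1 in control mouse 75 on day 5, and 5.08 and 5.41 in control mouse 254 on day 10. Slc17a8 was 3.70 and 7.16 RPKM in mouse 196, 5.62 and 11.1 in mouse 30, 11.1 and 9.96 in mouse 75, and 5.33 and 4.49 in mouse 254. Slc17a6 was thus higher in the oculomotor library in 3 of 4 mice, and Slc17a8 in 2 of 4. No test was made on these pairs.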
